A study of Mus musculus with 8 samples.

Results

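Transcripts of 10 MYC network genes were followed in bulk RNA-seq of the mouse retina. The genes were taken by name (*Myc*, *Mycn*, *Mycl*, *Max*, *Mxd1*, *Mxd3*, *Mxd4*, *Mxi1*, *Mnt* and *Mga*), and all 10 were found among the 54532 genes of the count table and passed the filter on low counts, which left 17998 genes for testing. There were 4 samples of *Mettl3*-CKO retina (*Six3-Cre*+; *Mettl3* floxed/floxed) and 4 of control retina, from mice that the series' design text calls littermates and whose alleles the labels do not give further. The labels put the pups at day 7 after birth, whereas the methods give the preceding day. *Six3-Cre* is active in retinal progenitor cells (RPCs), and the study's staining showed loss of the protein in the central retina, whereas retinas were collected without a stated restriction to that region. Vessels and microglia do not descend from RPCs.

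The MYC network is a family of transcription factors that pair through a shared helix-loop-helix and leucine zipper and bind the E-box, a short palindromic DNA motif. MYC, MYCN and MYCL pair with MAX to activate genes for growth, ribosome production and division. The MXD proteins, MXI1, MNT and MGA also pair with MAX and act as repressors on the same sites, most of them through the SIN3 co-repressor. In the retina *Mycn* is known for driving the expansion of RPCs, and MXD proteins typically rise as cells leave the cell cycle.

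Total counts lay between 16227095 and 20281517 per sample, so that 3 counts correspond to at most 0.185 CPM (counts scaled to a common library total) in a sample. No source used here states whether each sample was 1 animal or a pool, so the p-values measure the spread between these samples. *Mettl3*, the targeted gene, averaged 24 ± 3.96 CPM in *Mettl3*-CKO and 31.2 ± 2.23 CPM in control retinas (SD, n = 4 each), with overlapping groups. Its log2 fold change was -0.38 (*Mettl3*-CKO over control, adjusted p = 0.0602 by the quasi-likelihood test of edgeR, adjusted for multiple testing by Benjamini-Hochberg), and it passed with DESeq2 (adjusted p = 0.0269) and limma voom (adjusted p = 0.0139). These are counts over the whole gene, and exons outside a floxed segment still count. The labelled tissue carried its markers, since none of 8 rod genes was at 0 in any sample and their levels summed to between 1540 and 4170 CPM. A pair of control libraries stood apart. Control replicate 4 held 3270 CPM of 12 lens genes, against at most 67.9 CPM in any other library, and control replicate 1 had the highest rod sum (4170 CPM) and the lowest sum of 12 proliferating progenitor genes (1560 CPM).

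The E-box is shown first because it is the site that every MAX pair in this family shares. It was searched as the letters CACGTG, which read the same on both strands, in RefSeq promoter windows of GRCm38.p6 that run from 250 bases before to 50 bases after a gene's start. Of the members, 9 matched a window, and *Max*, *Mnt* and *Mxd4* held the motif. *Mxi1* and *Mxd1*, the members called lower further on, did not hold it. Among all tested genes with a window, 11.1% held it. In the lists described further on, it was held by 22.7% of ribosome biogenesis targets (5 of 22 with a window). The share was 31.8% of metabolism, translation and cell cycle targets (7 of 22) and 25% of genes repressed by MYC (2 of 8), called or not. These lists are small and were chosen as genes that answer to MYC, so their shares are no independent result. The partner and regulator lists lay between 9.09% and 14.3%, apart from the MLX branch (66.7% of 3 genes). The windows below give these members and the called target genes described further on that hold it, written on the gene's strand with the E-box in capitals.
Max (chr12:76962234-76962263, minus strand): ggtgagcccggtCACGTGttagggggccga
Mnt (chr11:74830789-74830818, plus strand): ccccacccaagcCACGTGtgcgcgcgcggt
Mxd4 (chr5:34187912-34187941, minus strand): gggctgggccacCACGTGctgttgctaagc
Nme1 (chr11:93968273-93968302, minus strand): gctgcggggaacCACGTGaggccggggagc
Nme1, second start (chr11:93968037-93968066, minus strand): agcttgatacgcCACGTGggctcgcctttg
Utp20 (chr10:88826765-88826789, minus strand): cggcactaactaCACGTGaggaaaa
The motif lies across the RefSeq start of *Max*, 123 bases before that of *Mnt* and 219 bases before that of *Mxd4*. The range of *Max* in the count table starts at 76962201 on this strand, so by that annotation the motif lies before the gene. A match describes these letters and says nothing of binding.

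The members spanned a wide range of levels in control retinas, compared here per length as FPKM (CPM on total counts, divided by the gene length of the file in kilobases). *Mycn* and *Mycl* led, at 51.0 ± 2.53 and 48.0 ± 4.32 FPKM (SD, n = 4 each), at percentiles 95.3 and 94.9 of the tested genes. *Myc* was the lowest member at 1.36 ± 0.40 FPKM (SD, n = 4). *Mycn* and *Mycl* took 49.6% to 53.1% and 45.0% to 49.3% of the summed FPKM of the 3 paralogs in the controls, and *Myc* took at most 1.91%.

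Below them in the control order came *Mxi1* (24.5 ± 4.78 FPKM), the shared partner *Max* (21.0 ± 2.61 FPKM), *Mxd4* (18 ± 1.35 FPKM), *Mnt* (14.4 ± 2.92 FPKM), *Mga* (11.8 ± 0.253 FPKM), *Mxd3* (11.1 ± 2.67 FPKM) and *Mxd1* (7.07 ± 0.218 FPKM; SD, n = 4 for each). Neighbours in this order overlapped between control samples, except at 3 steps. Every control value of *Mycl* was above every one of *Mxi1*, every *Mxd3* value above every *Mxd1* value, and every *Mxd1* value above every *Myc* value. The order of the middle members depends on the length used. With the longest coding transcript of each gene, *Mxd4* (39.5 FPKM) and *Max* (38.9 FPKM) stood above *Mxi1* (27.3 FPKM) and *Mxd3* rose to 19.9 FPKM, while *Mycn* and *Mycl* stayed first and *Myc* last.

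**Figure D1:**
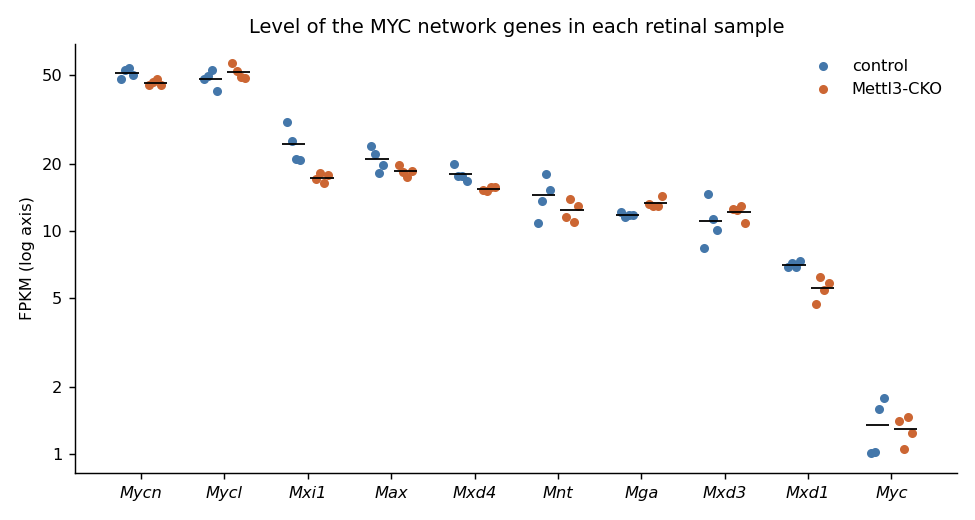
Level of each MYC network gene in the 8 retinal samples, in FPKM on a log axis, ordered by the control mean; points are samples, blue for control and orange for Mettl3-CKO, and black lines are group means (n = 4). Mycn and Mycl sit near 50 FPKM in both groups and Myc between 1 and 2 FPKM. The points of the groups do not overlap for Mxi1, Mxd1, Mxd4 and Mycn, lower in Mettl3-CKO, and for Mga, higher in Mettl3-CKO.

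Comparing *Mettl3*-CKO with control retinas asks how loss of the m6A writer changed RNA levels at the end of retinogenesis. In the MYC network the antagonists *Mxi1* and *Mxd1* fell, by 0.51 and 0.35 on the log2 scale, and edgeR called no member higher. Calls were made by edgeR where the p-value, adjusted across the whole tested set, was under 0.05, and 2 of the 10 members were called lower, against 4.05% of all tested genes, and 0 were called higher, against 6.49%. At an unadjusted p under 0.05 *Mxd4* (lower) and *Mga* (higher) were added. The share of all tested genes at that looser threshold was not counted, so no excess among the members is read from it. With DESeq2 the counts were 3 lower and 0 higher, against 5.96% and 8.2% of genes, and with limma voom 3 lower and 1 higher, against 8.71% and 11.9%. The median log2 fold change of the members was -0.18 and that of all tested genes -0.01. A positive value was seen for 3 of the 10 members and for 8678 of the 17998 tested genes. The groups did not overlap for 5 of the 10 members, against 17.4% of all tested genes. Of these members 4 lay lower in every *Mettl3*-CKO sample (7.59% of all genes) and 1 lay higher (9.76%). Levels of single samples are given next as CPM after TMM scaling, which corrects for differences in library composition, and always in the order of replicates 1 to 4.

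The called members were both repressors. *Mxi1* (ENSMUSG00000025025, chromosome 19, 53310506 to 53375810, GRCm38), a SIN3-recruiting antagonist of MYC, was at 94.7, 102, 92.9 and 98.6 CPM in mutant retinas and at 179, 141, 118 and 115 CPM in the controls. The 4 *Mettl3*-CKO samples lay close together and below every control, whereas the controls were widely spread, with replicate 1 highest. The log2 fold change was -0.51 (standard error 0.13, adjusted p = 0.0227, edgeR). Without control replicate 1 it was -0.36. The call was lost in 3 of 8 refits with one sample omitted, at adjusted p-values of 0.0844 without *Mettl3*-CKO replicate 1, 0.0631 without *Mettl3*-CKO replicate 3 and 0.0625 without control replicate 2. Without both control replicates 1 and 4 it was -0.42 (adjusted p = 0.014, edgeR).

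*Mxd1* (ENSMUSG00000001156, chromosome 6, 86647042 to 86669161), the founding MAD protein, which is typically induced on differentiation, was at 33.2, 44.2, 38.7 and 41 CPM in mutant retinas. In the controls it was at 50.3, 50.3, 48.7 and 51.4 CPM. The controls were tightly grouped and all above the *Mettl3*-CKO samples. The log2 fold change was -0.35 (standard error 0.10, adjusted p = 0.0333, edgeR). This call was near the threshold. It held without *Mettl3*-CKO replicate 2 and without control replicate 1, and in the other 6 refits with one sample omitted the adjusted p lay between 0.0527 and 0.107, highest without *Mettl3*-CKO replicate 1, with log2 fold changes between -0.37 and -0.28. Without both control replicates 1 and 4 the adjusted p was 0.0783. Its range holds a second gene model on the same strand, *Gm44292*, with at most 16 counts in a sample.

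*Mxd4* (ENSMUSG00000037235, chromosome 5, 34173883 to 34187720), another MXD repressor of differentiating cells, was at 129, 128, 135 and 131 CPM in mutant retinas and at 174, 149, 150 and 141 CPM in the controls. Here too every *Mettl3*-CKO value was below every control value. The log2 fold change was -0.23 (95% interval -0.41 to -0.05), and the adjusted p of 0.0984 (edgeR) did not pass. DESeq2 gave an adjusted p of 0.0425.

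*Mxd3* (ENSMUSG00000021485, chromosome 13, 55325168 to 55329823) is the MXD member known for being expressed in cycling cells. Its levels were 29.5, 29.3, 30.6 and 25.6 CPM in mutant retinas and 20.4, 34.5, 26.7 and 23.8 CPM in the controls. The controls spanned the whole range of the *Mettl3*-CKO samples. The log2 fold change was 0.13 (95% interval -0.18 to 0.43, adjusted p = 0.64, edgeR), and -0.09 without control replicates 1 and 4. Its last 105 bases overlap *Prelid1* on the other strand, a gene of up to 2828 counts, and reads there cannot be assigned unless strand was used in counting.

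*Mnt* (ENSMUSG00000000282, chromosome 11, 74830920 to 74845725), the broadly expressed repressor of the family, was at 53.4, 64.2, 51 and 59.2 CPM in mutant retinas and at 52.2, 62.2, 82.6 and 70.4 CPM in the controls. The groups overlapped, and the log2 fold change was -0.23 (95% interval -0.52 to 0.05, adjusted p = 0.308, edgeR). Control replicate 1 was the lowest of its group for *Mnt* and the highest for *Mxi1*. Without it, the log2 fold change of *Mnt* was -0.33 with an adjusted p of 0.0431.

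*Mga* (ENSMUSG00000033943, chromosome 2, 119897228 to 119969581), a very long repressor with a T-box as well as a MAX-pairing domain, went the other way, at 201, 199, 201 and 218 CPM in mutant retinas against 193, 176, 181 and 180 CPM in the controls. All 4 *Mettl3*-CKO samples were above all controls. The difference was small, with a log2 fold change of 0.17 (95% interval 0.01 to 0.32), and the adjusted p of 0.179 (edgeR) did not pass. Of the tools and settings tried, limma voom alone called it, at an adjusted p of 0.0368.

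**Figure D2:**
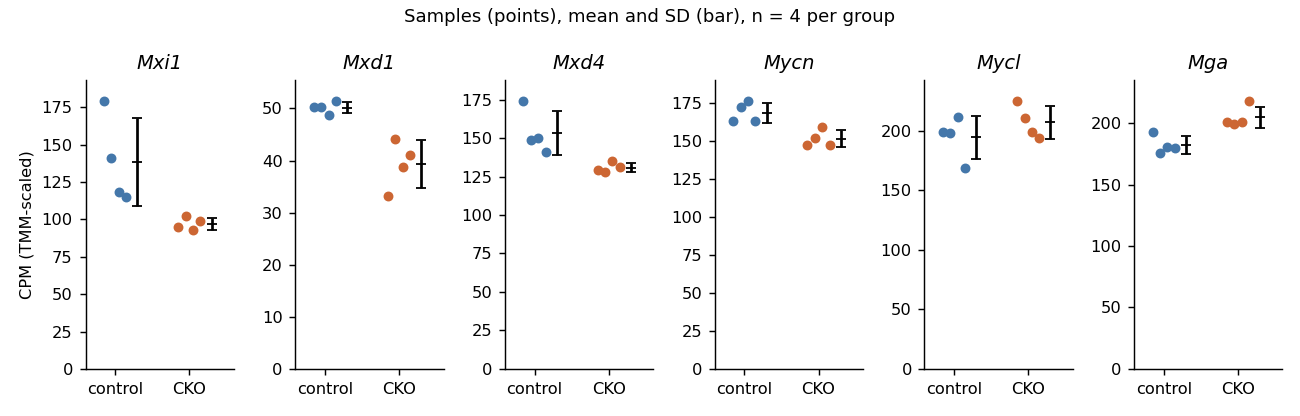
TMM-scaled CPM of Mxi1, Mxd1, Mxd4, Mycn, Mycl and Mga in each control (blue) and Mettl3-CKO (orange, CKO) sample, with the group mean and SD as a black bar beside the points (n = 4 per group); each axis starts at 0. The Mettl3-CKO points lie below the controls for Mxi1, Mxd1, Mxd4 and Mycn, above them for Mga, and overlap them for Mycl.

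Among the activators none was called. *Mycn* (ENSMUSG00000037169, chromosome 12, 12936093 to 12941914), the RPC paralog, was at 147, 152, 159 and 147 CPM in mutant retinas and at 163, 172, 176 and 163 CPM in the controls. Each *Mettl3*-CKO sample was below each control. The log2 fold change was -0.16 (95% interval -0.32 to 0.00, adjusted p = 0.208, edgeR), so this difference was not called.

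*Mycl* (ENSMUSG00000028654, chromosome 4, 122995652 to 123002485) was at 225, 211, 199 and 194 CPM in mutant retinas and at 199, 198, 212 and 169 CPM in the controls. The groups overlapped, with a log2 fold change of 0.09 (95% interval -0.10 to 0.28, adjusted p = 0.581, edgeR). On the FPKM scale the ratio of *Mycn* to *Mycl* was 0.899 ± 0.0755 in *Mettl3*-CKO and 1.07 ± 0.0804 in control retinas (SD, n = 4 each). Every *Mettl3*-CKO ratio (0.801 to 0.979) was below every control ratio (1.01 to 1.18), so *Mycl* was the higher of the pair in each *Mettl3*-CKO sample and *Mycn* in each control. Which of the pair is higher within a sample depends on the length given to each gene, whereas the difference between the groups in their ratio does not.

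*Myc* (ENSMUSG00000022346, chromosome 15, 61985391 to 61990374) rested on 45 to 83 counts per sample. It was at 3.81, 2.89, 4.03 and 3.36 CPM in mutant retinas and 2.83, 2.75, 4.34 and 4.82 CPM in the controls. The groups overlapped fully, and the log2 fold change of -0.06 had a 95% interval from -0.55 to 0.42 (adjusted p = 0.90, edgeR), too wide to exclude a change of the size seen for *Mxd1*. The shared partner *Max* (ENSMUSG00000059436, chromosome 12, 76937269 to 76962201) was at 70.2, 65.7, 63.4 and 66 CPM in mutant retinas against 89.1, 79.1, 65.1 and 70.6 CPM in controls. Only control replicate 3 lay within the range of the *Mettl3*-CKO samples, with a log2 fold change of -0.20 (95% interval -0.42 to 0.03, adjusted p = 0.263, edgeR).

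**Figure D3:**
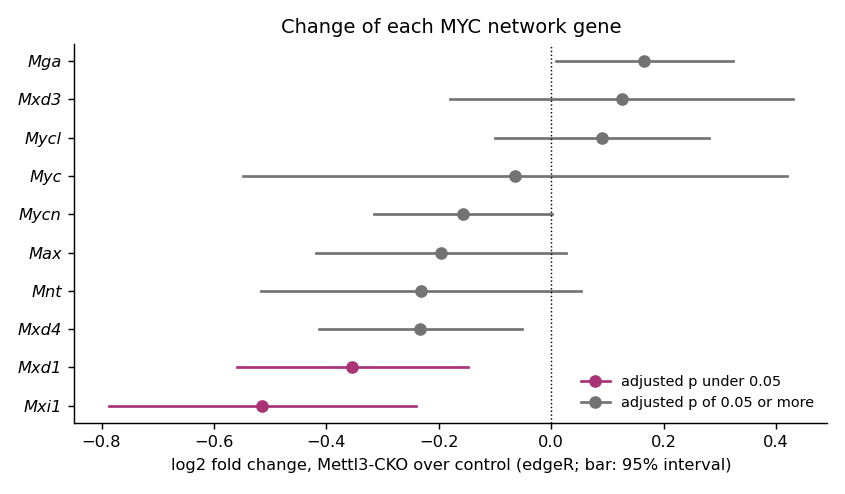
Log2 fold change (Mettl3-CKO over control, edgeR) of the 10 MYC network genes with 95% intervals, purple where the adjusted p over all tested genes is under 0.05 and grey otherwise. Mxi1 and Mxd1 are the purple genes, at -0.51 and -0.35, and the widest interval is that of Myc, from -0.55 to 0.42.

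Summed by role, the MYC paralogs were level between the groups and the MXD group was not. *Myc*, *Mycn* and *Mycl* together were at 98.9 ± 3.38 FPKM in *Mettl3*-CKO and 100 ± 6.34 FPKM in control retinas (SD, n = 4 each). *Mxd1*, *Mxd3*, *Mxd4* and *Mxi1* together were at 49.6, 51.7, 50.5 and 50.2 FPKM in mutant retinas and at 66.1, 64.9, 56.9 and 54.9 FPKM in the controls. The lowest control was thus above the highest *Mettl3*-CKO sample, with control replicates 3 and 4 nearest to them. *Mxi1* made up 32.5% to 35.4% of this MXD sum in *Mettl3*-CKO samples and 37.0% to 46.8% in controls. These shares, the sums and the ratios below depend on the gene length used. With the longest coding transcript *Mxd4* stood above *Mxi1* in the controls, and the sums were not recomputed with that length.

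The ratio of the MYC sum to the MXD sum was 1.96 ± 0.079 in *Mettl3*-CKO and 1.66 ± 0.182 in control retinas (SD, n = 4 each), and the groups met at 1.89. The ratio of the MYC sum to *Mga* was 7.40 ± 0.541 against 8.48 ± 0.625, with every *Mettl3*-CKO sample below every control. Relative to *Mnt* (8.07 ± 0.954 against 7.15 ± 1.34) and to *Max* (5.35 ± 0.227 against 4.84 ± 0.802; SD, n = 4 throughout) the groups overlapped, as they did for *Mxd3* over *Mxd4* (0.789 ± 0.0597 against 0.623 ± 0.168). No test was made on these sums and ratios, since the members were chosen with results known.

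**Figure D4:**
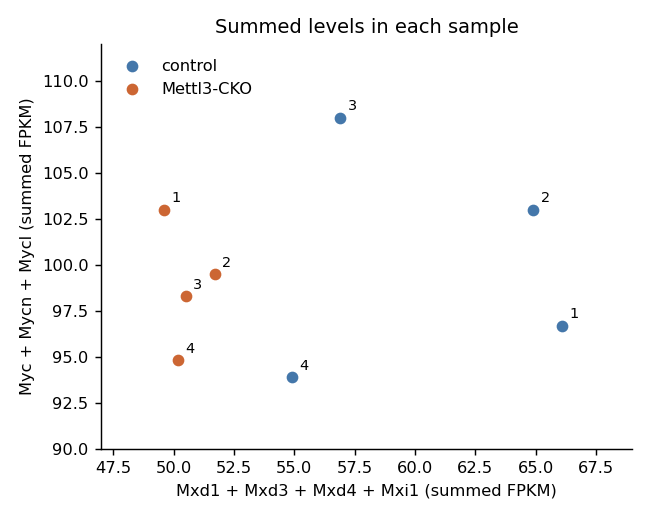
Summed FPKM of Myc, Mycn and Mycl (vertical axis) against summed FPKM of Mxd1, Mxd3, Mxd4 and Mxi1 (horizontal axis) in each sample, with replicate numbers; neither axis starts at 0. The Mettl3-CKO samples (orange) sit between 49.6 and 51.7 on the horizontal axis, left of the controls (blue, 54.9 to 66.1), while the groups overlap on the vertical axis.

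Some markers of cell type and cell state also differed between the groups. Of 12 proliferating progenitor genes 4 rose (33.3%, against 6.49% of all tested genes) and none was called lower. Their summed level was 2200 to 2900 CPM in *Mettl3*-CKO and 1560 to 2060 CPM in control samples. Much of this sum was *Mki67*, named after its values were seen, at 903 ± 150 against 458 ± 46.4 CPM (SD, n = 4 each). The sum without *Mki67* was not compared. Of 8 rod genes 5 fell (62.5%, against 4.05% of all tested genes), with sums of 1540 to 2920 CPM against 2800 to 4170 CPM. Of the other lists, 7 of 9 tested vascular genes (77.8%) and 4 of 7 tested pigment epithelium genes (57.1%) fell, against the same 4.05%. The vascular sum overlapped, at 543 to 645 CPM in *Mettl3*-CKO and 580 to 662 CPM in control samples. Most of it was *Kdr*, named after its values were seen, at 557 ± 41 against 548 ± 59.7 CPM (SD, n = 4 each). The vascular sum thus mainly reports *Kdr*, and the sum without it was not compared. The pigment epithelium sum did not overlap, at 60.3 to 82.9 CPM against 91.8 to 125 CPM. The 4 of 7 tested lens genes called lower rest on control replicate 4, since the lens sum of 6.96 to 11.5 CPM in control replicates 2 and 3 was close to the 7.75 to 22.4 CPM of the *Mettl3*-CKO samples and the groups overlapped for each of the 7. None of 8 microglial genes was called, though all 8 had a positive log2 fold change, with a median of 0.32, against 8678 of 17998 tested genes. Calls were made for 1 of 5 tested bipolar genes (20%), 2 of 9 amacrine and ganglion genes (22.2%) and 2 of 7 tested Müller glial genes (28.6%), against 10.5% of all tested genes. The Müller glial pair, named after their values were seen, went in opposite directions, *Rlbp1* with a log2 fold change of -1.28 (adjusted p = 0.00305, edgeR) and *Glul* with 0.43 (adjusted p = 0.00865, edgeR). Control replicate 1, highest for *Mxi1* and *Mxd4*, was also the control with the highest rod and lowest progenitor sum. In bulk samples fewer cells of a type and less RNA per cell cannot be told apart, and the part of these markers in the members' values was not tested.

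METTL3 prefers the RNA motif GGACU. In the longest coding transcript of each member (GENCODE vM21), its DNA letters GGACT occurred 6 times in *Myc* and *Mxi1*, 5 times in *Mycl*, *Mxd1*, *Mxd4* and *Mnt*, 3 times in *Mxd3*, 2 times in *Mycn* and *Max* and 8 times in *Mga*. Per kilobase this gave 0.574 in *Mga*, the lowest, and 2.57 in *Myc*, the highest, where the median of 14285 tested genes was 1.05 (quartiles 0.649 and 1.51). *Mxi1* (1.19) and *Mxd1* (1.07), the called members, were near that median. These counts describe sequence and not methylation.

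The wider pathway was read from 8 lists of partners and targets. MLX and its partners form a parallel branch that answers to glucose, and none of its 3 genes was called. *Mlx* was at 18.4 ± 2.36 CPM in *Mettl3*-CKO and 20.3 ± 2.5 CPM in control retinas, *Mlxip* at 61.3 ± 7.42 and 56.4 ± 13.5 CPM, and *Mlxipl* at 1.16 ± 0.49 and 0.814 ± 0.153 CPM (SD, n = 4 each). No gene was called among 12 co-activators and chromatin cofactors of MYC or 14 subunits of the SIN3 co-repressor that MXD proteins recruit. None was called among 9 partners of MGA in the polycomb complex PRC1.6. Of these 9 partners, 8 had a positive log2 fold change, with a median of 0.09, against 8678 of 17998 tested genes.

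Of 13 genes that set MYC protein stability, 3 rose (23.1%, against 6.49% of all tested genes) and none was called lower. Limma voom, and edgeR without control replicate 1, called 3 higher and 2 lower. Of all tested genes, limma voom called 11.9% higher and 8.71% lower. Without control replicate 1 edgeR called 1882 higher and 1289 lower of 18235 genes. No gene of this list passed without *Mettl3*-CKO replicate 1, where 509 of 18329 genes were called higher and 185 lower. None passed at a threshold of 0.01 either, where 439 of 17998 genes were called higher and 147 lower. *Aurka*, a mitotic kinase known to stabilise MYCN, was at 27.4 ± 3.38 CPM in *Mettl3*-CKO and 18.6 ± 2.64 CPM in control retinas (SD, n = 4 each), a log2 fold change of 0.56 (adjusted p = 0.0156, edgeR). *Skp2*, which encodes a ubiquitin ligase subunit, rose by 0.45 (adjusted p = 0.0126, edgeR), and among 8 refits with one sample omitted both calls were lost without *Mettl3*-CKO replicate 1 alone, at adjusted p-values of 0.0681 and 0.0525. *Trim32*, a ubiquitin ligase, rose by 0.45 (adjusted p = 0.0339, edgeR) with overlapping groups, a call kept in 2 of 8 refits with one sample omitted. *Aurka* and *Skp2* are themselves genes of dividing cells. The summed progenitor markers above, of which *Mki67* was the largest by group mean, were higher in the same samples. The part of these markers was not tested.

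Target lists of MYC held few calls with edgeR, and their number depended on the tool and on single libraries. Of 26 tested genes of ribosome biogenesis, 2 rose (7.69%) and none was called lower, and of 24 genes of metabolism, translation and cell cycle, 2 rose (8.33%) and none was called lower, both shares near the 6.49% of all tested genes called higher. Limma voom called 7 genes higher in each of these lists, of 26 and 24, against 11.9% of all genes, and it called 0 and 2 lower. Without control replicate 1 edgeR also called 7 higher in each, where 1882 of 18235 genes were called higher, and without *Mettl3*-CKO replicate 1 it called 0 and 1, where 509 of 18329 were. The cause of these differences was not tested. The median log2 fold changes of the lists were 0.11 and 0.10, with 20 of 26 and 18 of 24 genes above 0. Among all tested genes 8678 of 17998 were above 0. *Ncl*, encoding the nucleolar protein nucleolin, was at 789, 751, 765 and 681 CPM in mutant retinas and between 583 and 607 CPM in the controls, a log2 fold change of 0.32 (adjusted p = 0.0238, edgeR) kept in 4 of 8 refits with one sample omitted. *Utp20*, a factor of small ribosomal subunit assembly, rose by 0.28 (adjusted p = 0.0456, edgeR), a call kept in 1 of those 8 refits, without control replicate 1, and lost with no filter on low counts (adjusted p = 0.113). *Nme1*, a nucleoside diphosphate kinase whose promoter windows above hold an E-box at both starts, was at 56.9 ± 6.92 against 42.1 ± 2.15 CPM (SD, n = 4 each), a log2 fold change of 0.43 (adjusted p = 0.0165, edgeR) kept in 5 of 8 fits. *Shmt1*, an enzyme of folate metabolism, rose by 0.52 (adjusted p = 0.0102, edgeR) and was called in all 8.

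Genes known to be repressed by MYC were split. Of 10 genes, 2 rose and 3 fell, together 50% against 10.5% of all tested genes. *Cdkn1a*, encoding the cyclin-dependent kinase inhibitor p21 and also a p53 target, was at 98.1, 61.8, 81.8 and 68.6 CPM in mutant retinas and between 26.8 and 33.3 CPM in the controls, a log2 fold change of 1.33 (adjusted p = 0.000227, edgeR). *Gas1*, a growth arrest and hedgehog co-receptor gene, rose by 0.57 (adjusted p = 0.00781, edgeR). *Ndrg1*, a differentiation and hypoxia gene, was at 454 ± 84.2 against 756 ± 33.0 CPM (SD, n = 4 each), a log2 fold change of -0.73 (adjusted p = 0.00288, edgeR). These 3 calls held in all 8 refits with one sample omitted. The inhibitors *Cdkn1b* (p27) and *Cdkn1c* (p57) fell, with log2 fold changes of -0.38 (adjusted p = 0.0163, edgeR) and -0.39 (adjusted p = 0.0197, edgeR), in 7 and 3 of those fits. The cell cycle inhibitors of the list thus moved in both directions.

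**Figure D5:**
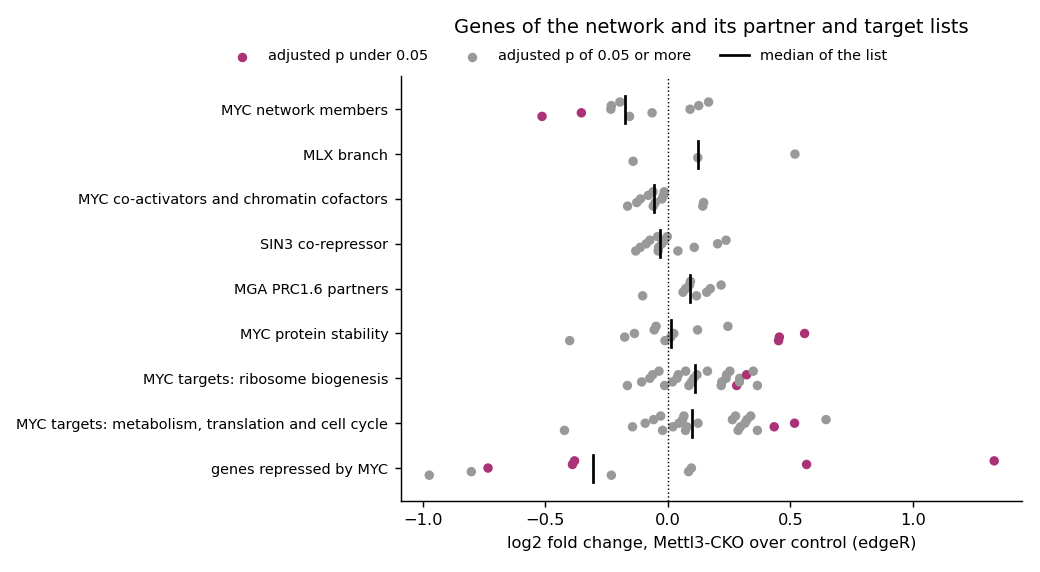
Log2 fold change (Mettl3-CKO over control, edgeR) of each tested gene in the MYC network and in 8 lists of its partners, regulators and targets, purple where the adjusted p is under 0.05; black lines are list medians. Purple genes lie on both sides of 0 among the genes repressed by MYC, from -0.73 for Ndrg1 to 1.33 for Cdkn1a, and the co-activator, SIN3 and PRC1.6 lists hold none.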

How the data were processed

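RNA of 4 *Mettl3*-CKO and 4 control samples of retina was sequenced. The authors filtered the paired-end reads, mapped them to GRCm38 (mm10) with Hisat2 and counted reads per gene with featureCounts, and the deposited values are raw whole-number counts per gene. The annotation release and strand setting are not given in the sources used here. Samples were matched to columns by title or description.

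Genes passing filterByExpr (17998 of 54532) were TMM-scaled and tested in R 4.3.3 with edgeR 4.0.16 (glmQLFit, glmQLFTest; Benjamini-Hochberg over all tested genes, threshold 0.05). Standard errors are the absolute log2 fold change over the square root of F. Alternatives were DESeq2 1.42.0 on the same genes, voom of limma 3.58.1 (weighting samples by quality), other scalings, no filter, a replicate block, a threshold of 0.01 and each sample left out; removing control replicates 1 and 4 and using transcript length were added after seeing the data. FPKM used the file's gene length and total counts. The fit was tested on simulated counts, where it called 83 of 100 genes changed 2-fold and 100 of 100 changed 4-fold. It also called 16 unchanged genes there, and changes as small as those of the members were not simulated. Replicate numbers recur in both genotypes, and no source ties a number to a litter or batch, so samples were not paired.

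The members and lists were chosen with earlier results of these data known. Named are all members, *Mettl3*, the MLX branch and, of each other list, up to 5 called genes by size of change. The study's other assays were not analysed here.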

Additional observations from a re-analysis of the deposited data

Results flagged for a closer look

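Among 20 sets of 4 samples (10 genes in each group), 1 held a sample whose gap to its neighbour, relative to the range of the set, passed Dixon's 95% critical value, and chance gives about 1 in 20. *Mga* was at 7.77 on the log2 CPM scale in *Mettl3*-CKO replicate 4 (4473 counts), while the other 3 of its group lay at 7.64 to 7.65. Without that sample the log2 fold change of *Mga* was 0.13, the lowest among 8 refits with one sample omitted.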

How the results depend on the processing

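*Mxi1* and *Mxd1* were called lower in all 6 alternative fits of the 8 samples (scaling, filter, tool and block), but at a threshold of 0.01 the members called lower were 0, the called partner and target genes 2 higher and 1 lower, and all genes 439 higher and 147 lower. Limma voom called 2142 genes higher and 1568 lower, 1 member higher, and 20 partner and target genes higher and 8 lower, against 1168, 729, 0, 9 and 3 with edgeR; the cause was not tested. With each of the 8 samples omitted in turn, calls ran from 509 to 1882 higher and 185 to 1289 lower for all genes. They ran from 0 to 3 lower for members and from 3 to 20 higher and 1 to 6 lower for partner and target genes. The lowest counts came when *Mettl3*-CKO replicate 1 was omitted and the highest when control replicate 1 was. Members called lower were also 0 without *Mettl3*-CKO replicate 3 and without control replicate 2, where 334 and 350 of all genes were called lower. Without control replicates 1 and 4 together, chosen after seeing the data, 1 member was lower and 14 partner and target genes higher. Of all 18807 genes tested in that fit, 1175 were called higher and 682 lower.

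Signs changed only for uncalled genes. With samples omitted, *Myc* ran from -0.18 to 0.088 (log2), *Mxd3* from -0.091 to 0.28, *Mlx* from -0.20 to 0.0019 and *Mlxip* from -0.036 to 0.21, and the sign of *Mxd3* and *Mlx* changed only without control replicates 1 and 4 together. *Mlxip* was -0.030 under voom. The replicate block called 2 members lower and 0 higher, and 1198 genes higher and 661 lower. Among named genes it ended the call of *Utp20* alone (adjusted p = 0.0656). No source says that a number marks a shared litter or batch, same-numbered samples correlated between -0.114 and 0.249 in their deviations from the group means, and 2 of the 4 *Mettl3*-CKO samples correlated best with their own number. The ratios of summed levels kept their direction without any one sample. Counts of *Myc* and *Mlxipl* are few, and their intervals are wide.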
